A study of Mus musculus with 7 samples.

Results

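The terminal pathway of complement is the last stage of the complement system, in which plasma proteins assemble into a pore through a target membrane. It was represented by 10 genes, each read by the 1 probe set that carried its symbol alone in the platform annotation, of 35556 probe sets in all. They comprised the 7 genes of the membrane attack components (Hc, C6, C7, C8a, C8b, C8g and C9) and 3 genes of inhibitors (Vtn, Clu and Cd59a), and all 10 were measured. Left-lobe liver RNA was hybridized to Mouse Gene 1.0 ST arrays, 1 array per mouse, from 3 Trpm6-deficient and 4 control male littermates on the C57BL/6 background. The Trpm6-deficient mice carried the Sox2-Cre transgene and 2 deleted Trpm6 alleles, 1 inherited as deleted and 1 cut from the floxed form by Sox2-Cre, and were 13, 12 and 13 weeks old (replicates 1, 2 and 3). The control mice carried 1 floxed and 1 intact allele, with no Cre transgene in the genotype given for them, and were 12, 12, 13 and 13 weeks old (replicates 1 to 4). Sox2-Cre acts in the epiblast, so that the loss of both alleles covered the body as a whole and not the liver alone. The comparison was part of the study's profiling of metabolism in mice with Mg2+ deficiency.

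In the terminal pathway, cleavage of C5, the product of Hc, gives C5b. C5b binds C6, and the pair then takes up C7, C8 and several copies of C9 in that order. Hepatocytes are the main source of most of these plasma proteins, whereas C7 is made largely outside the hepatocyte in humans. Vitronectin and clusterin, the products of Vtn and Clu, hold forming complexes in solution, and CD59, the product of Cd59a, stops the uptake of C9 at the membrane of the body's own cells. Terminal complement activity and C6 transcript are known to be higher in male than in female mice.

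C6 fell to 17.1% of its control level in Trpm6-deficient livers, by the difference of mean log2 values. C8a stood at 40.5%, C9 at 43.1% and C8b at 55.2% of the control level, and the 3 inhibitor genes at 89.2% to 113.5%. C6 alone passed the test of limma, for which the p-value adjusted for the false discovery rate (adjusted p) had to be 0.1 or less. Of all probe sets 0.0534% passed in this direction and 0.129% in either. At an unadjusted p of 0.05 or less, 5 of the 10 genes were lower (Hc, C6, C8a, C8b and C9) and 0 were higher, against 3.03% of all probe sets lower and 3.85% higher. The same 5 genes did not overlap between the groups, as was so for 2.38% of all probe sets in this direction and 2.94% in the other. A log2 fold change of -1 or below was seen in 3 of the 10 genes and in 0.281% of all probe sets. The median log2 fold change of the 10 genes was -0.22, beside 0 for all probe sets.

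The promoter windows of the 4 genes with the lowest log2 fold changes are shown here, so that the genes with the strongest differences can be set side by side. Hc, at -0.27, was left out for its size of change alone. Each runs from 250 bases before to 50 bases after the gene start in RefSeq (GRCm38.p6), in the direction of the gene. Capitals mark a match to any of 5 short motifs on either strand, which were the STAT motif TTCNNNGAA, the HNF6 and CUX core ATCAAT, the HNF1 core GTTAAT, the C/EBP core TTGCNNAA and the TATA box TATAAA. No match overlapped another in these 4 windows.
C6, chr15:4726960-4727259, plus strand: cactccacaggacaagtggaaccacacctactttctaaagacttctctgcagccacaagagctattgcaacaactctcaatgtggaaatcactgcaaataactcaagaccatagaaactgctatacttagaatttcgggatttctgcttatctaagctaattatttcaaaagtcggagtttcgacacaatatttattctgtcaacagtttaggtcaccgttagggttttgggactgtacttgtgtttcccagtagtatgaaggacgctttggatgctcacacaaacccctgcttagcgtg
C8a, chr4:104876349-104876648, minus strand: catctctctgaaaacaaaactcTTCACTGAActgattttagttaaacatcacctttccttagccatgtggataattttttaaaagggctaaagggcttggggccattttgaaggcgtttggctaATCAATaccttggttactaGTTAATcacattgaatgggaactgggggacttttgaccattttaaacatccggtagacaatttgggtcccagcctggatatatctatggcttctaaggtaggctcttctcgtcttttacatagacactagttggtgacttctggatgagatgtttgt
C8b, chr4:104766067-104766366, plus strand: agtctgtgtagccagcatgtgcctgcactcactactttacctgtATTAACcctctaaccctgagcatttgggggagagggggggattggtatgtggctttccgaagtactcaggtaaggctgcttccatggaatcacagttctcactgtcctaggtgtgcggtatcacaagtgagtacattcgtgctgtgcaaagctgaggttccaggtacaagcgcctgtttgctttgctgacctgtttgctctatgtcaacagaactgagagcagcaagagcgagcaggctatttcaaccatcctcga
C9, chr15:6445096-6445395, plus strand: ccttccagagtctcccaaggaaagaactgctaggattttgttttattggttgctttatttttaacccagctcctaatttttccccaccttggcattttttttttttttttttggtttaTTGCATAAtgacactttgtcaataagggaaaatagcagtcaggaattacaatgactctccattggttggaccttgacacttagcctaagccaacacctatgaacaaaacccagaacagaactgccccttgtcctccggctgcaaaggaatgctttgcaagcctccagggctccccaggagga
The C6 window held none of the 5 motifs. The C8a window held the STAT motif (TTCACTGAA), the HNF6 and CUX core and the HNF1 core, the C8b window the HNF1 core on the opposite strand (ATTAAC), and the C9 window the C/EBP core (TTGCATAA). Windows were given for 9 of the 10 genes. Of these 9, the HNF1 core was in 5 (Hc, C7, C8a, C8b and Vtn), the STAT motif in 3 (C7, C8a and Vtn) and the TATA box in 3 (Hc, C7 and Vtn). The HNF6 and CUX core was in 1 (C8a) and the C/EBP core in 1 (C9). The 9 genes had 10 windows in all, and the shares that follow are per window. Of 32851 windows of the same length, 7.10% held the HNF1 core, 8.30% the STAT motif, 7.54% the HNF6 and CUX core, 10.8% the C/EBP core and 13.6% the TATA box. No motif was shared by all 4 of the genes shown, and matches of letters are a description of the windows.

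C6 encodes the component that binds C5b first and holds the growing complex together. Its log2 values were 10.27, 8.96 and 9.64 in Trpm6-deficient livers 1, 2 and 3, against 12.26, 12.17, 12.05 and 12.21 in control livers 1 to 4. Every Trpm6-deficient liver lay below every control liver, with a gap of 1.78 log2 units between the nearest livers of the groups. C6 thus averaged 9.62 ± 0.66 (SD, n = 3) in Trpm6-deficient and 12.17 ± 0.09 (SD, n = 4) in control livers. It fell by 2.55 on the log2 scale (SE 0.28, 95% interval -3.23 to -1.86, adjusted p = 0.0788). The decrease was 5.85-fold, and the 3 livers stood at 26.7%, 10.8% and 17.3% of the control mean. Leaving out control 1, 2, 3 or 4 gave adjusted p of 0.232, 0.283, 0.287 and 0.297, and leaving out Trpm6-deficient 3 gave 0.315, with log2 fold changes of -2.52, -2.55, -2.59, -2.54 and -2.56. Across 14 alternatives with a test the adjusted p ranged from 0.0318 to 0.388 and 6 kept the call.

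C8a and C8b encode the alpha and beta chains of C8, which carry the complex into the membrane. For C8a the log2 values were 11.51, 10.68 and 10.92 in Trpm6-deficient livers, against 12.58, 12.12, 12.18 and 12.48 in control livers. The groups were apart by 0.61 log2 units. The log2 fold change of C8a was -1.30 (SE 0.22, 95% interval -1.83 to -0.78, adjusted p = 0.220), which did not pass. For C8b the log2 values were 12.79, 12.16 and 12.33 in Trpm6-deficient livers, against 13.27, 13.27, 13.31 and 13.29 in control livers. Control livers were within 0.04 log2 units of one another for C8b, and the nearest Trpm6-deficient liver lay 0.48 below them. C8b had a log2 fold change of -0.86 (SE 0.14, 95% interval -1.20 to -0.51, adjusted p = 0.217), which did not pass either.

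C9 encodes the component that polymerizes into the wall of the pore. Its log2 values were 12.09, 11.49 and 11.42 in Trpm6-deficient livers, against 13.12, 12.83, 12.80 and 12.78 in control livers. The groups were apart by 0.69 log2 units. The log2 fold change of C9 was -1.22 (SE 0.18, 95% interval -1.65 to -0.78, adjusted p = 0.169), short of the threshold. Without Trpm6-deficient 1, C8a, C8b and C9 passed as well, with log2 fold changes of -1.54, -1.04 and -1.43 and adjusted p of 0.0926, 0.0279 and 0.0449 from limma. Over all alternatives with a test their adjusted p ran from these values up to 0.612, 0.597 and 0.540.

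C8g encodes the third chain of C8, a small lipocalin that is joined to the alpha chain. Its log2 values were 12.91, 13.28 and 13.01 in Trpm6-deficient livers, against 12.81, 13.24, 13.31 and 13.38 in control livers, and the groups overlapped. For C8g the log2 fold change was -0.12 (SE 0.16, 95% interval -0.50 to 0.27, adjusted p = 0.920). The genes of the 3 chains of C8 thus had log2 fold changes of -1.30, -0.86 and -0.12, and only the interval of C8g included 0.

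Hc, at the head of the pathway, encodes C5. Its log2 values were 12.61, 12.42 and 12.59 in Trpm6-deficient livers, against 13.01, 12.80, 12.67 and 12.74 in control livers. The groups were apart by 0.06 log2 units, less than the SD of either group (0.10 in Trpm6-deficient and 0.15 in control livers). Hc had a log2 fold change of -0.27 (SE 0.10, adjusted p = 0.672).

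C7 encodes the component that first inserts into the membrane. Its log2 values were 5.68, 5.53 and 5.31 in Trpm6-deficient livers, against 5.64, 5.84, 5.65 and 5.60 in control livers. All of them lay between the lower quartile (5.05 to 5.11) and the median (6.43 to 6.48) of the arrays, and whether the probe set was above background was not tested. The log2 fold change of C7 was -0.18 (SE 0.10, 95% interval -0.43 to 0.07, adjusted p = 0.835), and the groups overlapped.

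**Figure D1:**
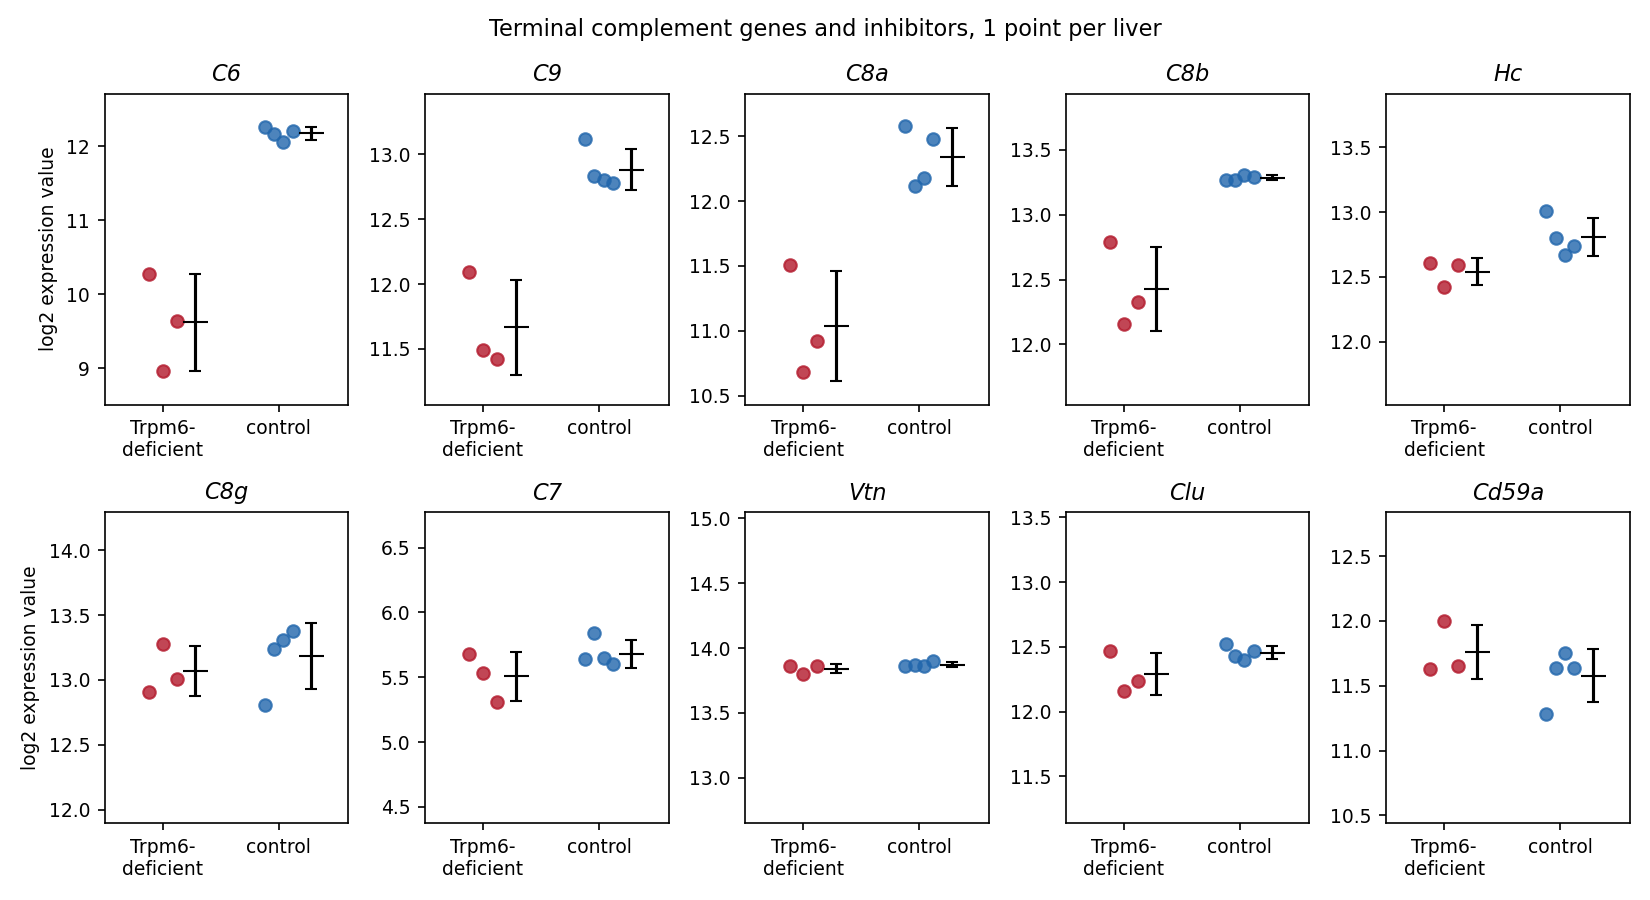
Log2 expression values (vertical axis, each panel with its own range) of the 10 genes, with 1 point per liver (red, Trpm6-deficient, n = 3; blue, control, n = 4), and the mean and SD beside the points. C6, C9, C8a, C8b and Hc do not overlap between the groups, and the other 5 genes do.

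The groups overlapped for each of the 3 inhibitor genes, and none passed the test. Vtn had log2 values of 13.86, 13.80 and 13.86 in Trpm6-deficient livers, against 13.86, 13.87, 13.86 and 13.90 in control livers. This is a log2 fold change of -0.03 (SE 0.04, adjusted p = 0.912), and its 95% interval of -0.13 to 0.07 was the narrowest of the 10 genes. Vtn was above about 99.7% of the probe sets of every array, and whether values this near the top of the scale can show a change was not tested. Clu had 12.47, 12.16 and 12.24 in Trpm6-deficient livers, against 12.52, 12.43, 12.40 and 12.47 in control livers. Trpm6-deficient 2 and 3 lay below every control liver for Clu and Trpm6-deficient 1 did not (log2 fold change -0.17, SE 0.08, 95% interval -0.36 to 0.03, adjusted p = 0.799). Cd59a had 11.63, 12.00 and 11.65 in Trpm6-deficient livers, against 11.28, 11.64, 11.75 and 11.64 in control livers. It was the 1 gene of the 10 with a log2 fold change above 0, at 0.18 (SE 0.14, 95% interval -0.16 to 0.53, adjusted p = 0.863). Its paralogue Cd59b had a log2 fold change of 0.15 (SE 0.17, adjusted p = 0.905), and how far the 2 probe sets read each other's transcript was not tested.

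**Figure D2:**
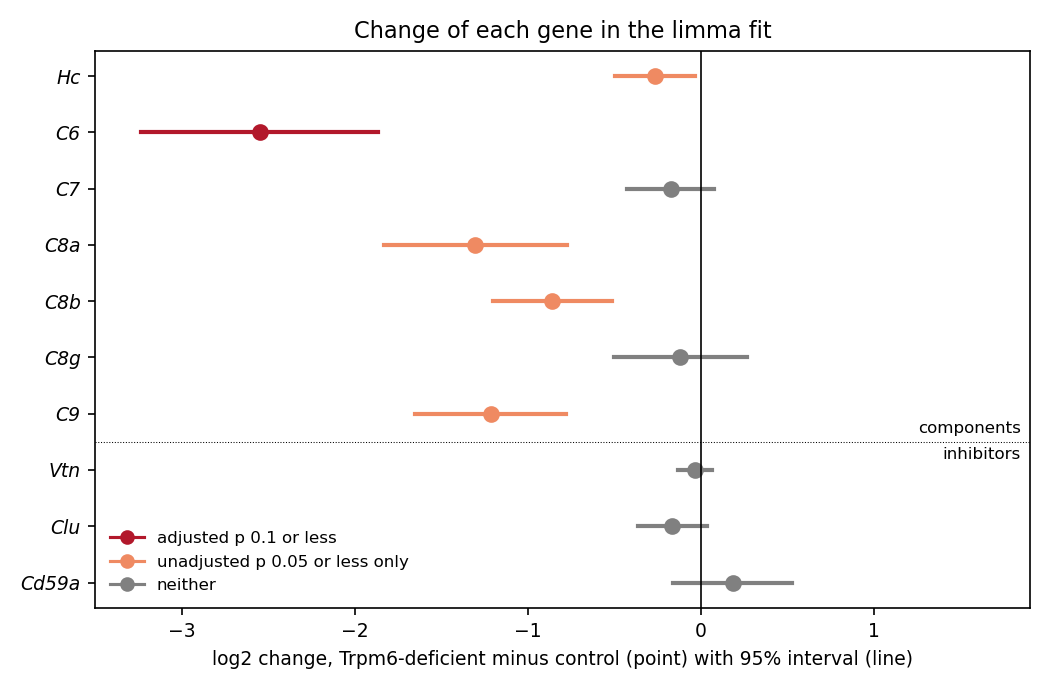
Log2 change of each gene, Trpm6-deficient minus control (horizontal axis), with its 95% interval from limma (Trpm6-deficient, n = 3; control, n = 4), in the order of the pathway with the inhibitors below the dotted line. The intervals of C6, C8a, C8b, C9 and Hc lie below 0, and C6 at -2.55 alone passed the test.

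C6 had the lowest log2 fold change of the 10 genes. The log2 fold change of C6 minus that of the other gene was -1.25 for C8a, -1.33 for C9, -1.69 for C8b and between -2.73 and -2.28 for the other 6 genes. For all 9 pairs the difference within a liver did not overlap between the groups. All 9 pairs share the C6 values, which were by themselves 1.78 log2 units apart between the groups. The pairs are therefore not separate results. C6 was set against the others with its value known, so these differences are a description. An exact permutation test over 3 livers against 4 can give no two-sided p below 0.0571, whatever the values.

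Within the Trpm6-deficient group the 5 genes without overlap ranked the livers in nearly the same order. Trpm6-deficient 1 was shifted least from the control mean in each of them, by -1.90 for C6, -0.83 for C8a, -0.79 for C9, -0.50 for C8b and -0.20 for Hc. Trpm6-deficient 2 was shifted most for C6 (-3.21), C8a (-1.66), C8b (-1.12) and Hc (-0.38). For C9 Trpm6-deficient 3 stood lowest, at -1.46, with Trpm6-deficient 2 at -1.39. For Hc Trpm6-deficient 1 and 3 were close, at -0.195 and -0.215. Among the genes with overlap, Trpm6-deficient 1 was also shifted least for C7 (-0.0025), Clu (0.015) and Cd59a (0.0525). It was level with Trpm6-deficient 3 for Vtn (-0.0125) and shifted most for C8g (-0.275). The small shift of Trpm6-deficient 1 was thus not particular to the 5 genes. The median shift over the 10 genes was -0.24, -0.34 and -0.29 in Trpm6-deficient livers 1, 2 and 3, and lay between -0.04 and 0.03 in control livers.

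**Figure D3:**
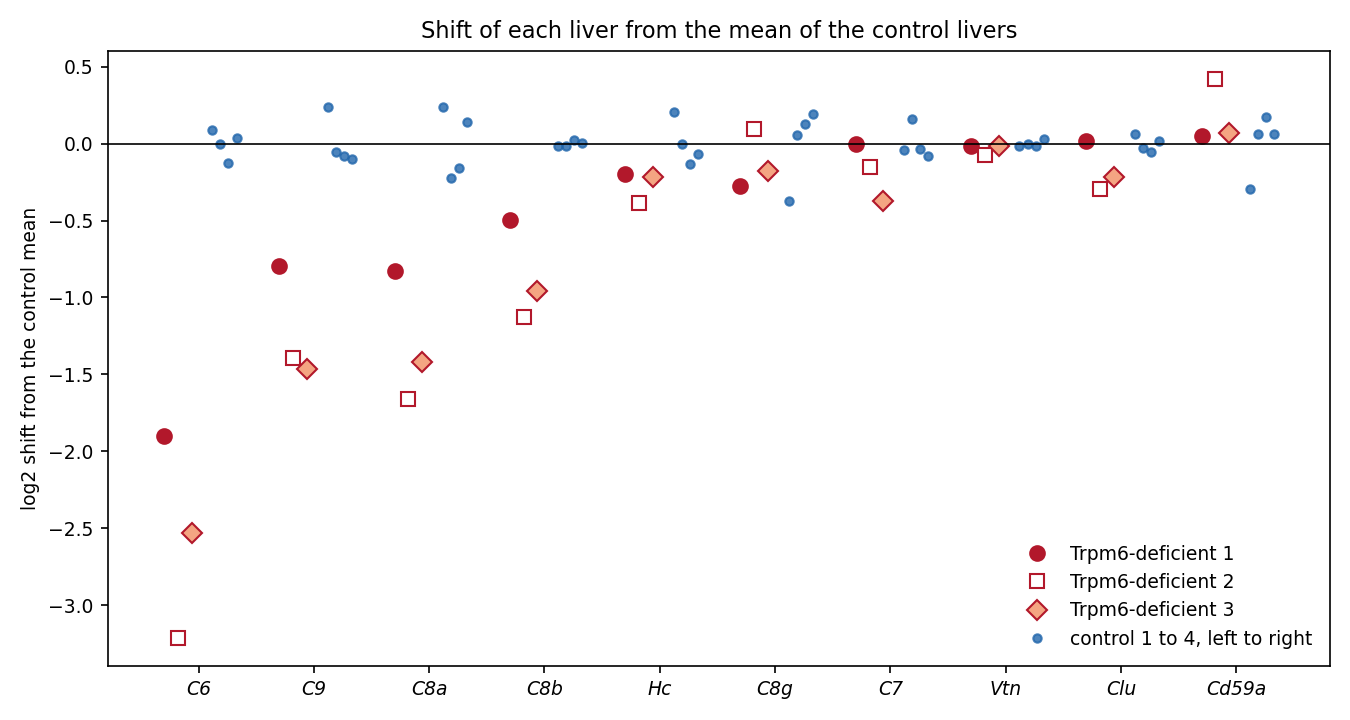
Log2 shift of each liver from the mean of the 4 control livers (vertical axis) for the 10 genes, with red symbols for Trpm6-deficient livers 1, 2 and 3 and blue points for control livers 1 to 4. For C6, Trpm6-deficient 2 is lowest at -3.21 and Trpm6-deficient 1 highest of its group at -1.90.

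Age divided the livers further, since the 12-week livers were Trpm6-deficient 2 with control 1 and 2, and the 13-week livers Trpm6-deficient 1 and 3 with control 3 and 4. At 12 and 13 weeks the log2 fold change of C6 was -3.25 and -2.17, that of C8a -1.67 and -1.12, that of C8b -1.11 and -0.74, and that of C9 -1.48 and -1.04. The 12-week values rest on 1 Trpm6-deficient liver. The difference between the ages for C6 was 1.08 log2 units (unadjusted p = 0.0373, adjusted p = 0.981, interaction term in limma). C8g (0.26 and -0.38) and Cd59a (0.54 and -0.05) had opposite signs at the 2 ages, and neither interaction passed (unadjusted p = 0.0611 for C8g and 0.0489 for Cd59a, adjusted p = 0.981 for both). These interactions rest on the same single 12-week Trpm6-deficient liver. With age as a covariate the log2 fold change of C6 was -2.61 and its adjusted p was 0.168.

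The pattern of C6 over the 7 arrays was compared with that of 1025 probe sets with 1 symbol, a mean of at least 5 (log2) and a range of at least 1. Gstp1, a glutathione transferase gene, was most like it (Pearson r = 0.996), followed by C8b (0.987), the gene Ttc39c (0.984), Hsd3b5, a steroid dehydrogenase gene (0.983), Egfr, a growth factor receptor gene (0.981), and C8a (0.979). C9 stood in place 12 (0.973). The r of 0.9 or more that these genes share was reached by 44 of the 1025 probe sets. All points share the same 3 and 4 livers, so that a difference between the groups of any origin raises r. Of the other terminal complement genes only C8a, C8b and C9 met the range filter. In Trpm6-deficient and control livers their ranges were 0.63 and 0.04 (C8b), 0.83 and 0.46 (C8a), and 0.67 and 0.34 (C9), each below 1. They thus met the filter through the difference between the groups. Their places and the share of 44 therefore cannot show a likeness to C6 beyond that difference.

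In the genome C8a and C8b are neighbours that are transcribed towards each other, and C6 and C7 have 1 protein-coding gene, Mroh2b, between them (RefSeq, GRCm38.p6). None of the 10 genes lies on chromosome 19, which holds Trpm6. The nearest protein-coding genes, up to 2 places away on each side of C6, C7, C8a, C8b and C9, were taken by position after the values of the 10 genes were known. Of 13 such genes 12 were measured, with log2 fold changes of -0.38 to 0.13. None passed the test of limma, as 0.129% of all probe sets did. At an unadjusted p of 0.05 or less 2 were lower and 0 higher, against 3.03% and 3.85% of all probe sets. The 2 were Prkaa2, 2 places from C8a (log2 fold change -0.26, adjusted p = 0.647), and Rictor, 2 places from C9 (-0.20, adjusted p = 0.712). Plcxd3 and Mroh2b, on either side of C6, had log2 fold changes of -0.03 (adjusted p = 0.931) and -0.03 (adjusted p = 0.965), at mean log2 values of 4.76 and 5.87 in Trpm6-deficient livers that lie below the array medians. Dab1 and Fyb2, beyond C8b and C8a, had log2 fold changes of -0.09 (adjusted p = 0.873) and 0.08 (adjusted p = 0.886), and Dab2 and Fyb, on either side of C9, had 0.13 (adjusted p = 0.968) and -0.38 (adjusted p = 0.815).

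Of 43 listed genes of the earlier complement stages and of complement receptors, 37 had a probe set with that symbol alone, and C3 was not among them. None of the 37 had an adjusted p of 0.1 or less (0.129% of all probe sets did), and at an unadjusted p of 0.05 or less 3 were lower and 0 higher, against 3.03% and 3.85% of all probe sets. Their median log2 fold change was -0.07. The 3 were Susd4, C4a and Mbl1, and none of them overlapped between the groups (2.38% of all probe sets were lower in this way). The groups were apart by 1.24 log2 units for Susd4, but by only 0.03 for C4a and 0.02 for Mbl1. For C4a and Mbl1 this was less than the SD of either group. Susd4, which encodes a membrane protein with complement control domains, had log2 values of 8.93, 7.96 and 8.06 in Trpm6-deficient livers, against 10.17, 10.74, 10.28 and 10.19 in control livers. Its log2 fold change was -2.03 (SE 0.27, adjusted p = 0.119), and it also stands in the list of genes higher in male liver below. C4a, the gene of the sex-limited protein, had a log2 fold change of -0.66 (SE 0.22, adjusted p = 0.641). C4b, the gene of C4 itself, had one of -0.34 (SE 0.21, adjusted p = 0.838), and the array may not separate these near-identical genes. Mbl1, a mannose-binding lectin gene, had a log2 fold change of -0.36 (SE 0.12, adjusted p = 0.647).

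In the alternative pathway 2 of 4 listed genes were measured, the properdin gene Cfp (log2 fold change -0.39, SE 0.33, adjusted p = 0.873) and the factor B gene Cfb (-0.07, SE 0.13, adjusted p = 0.947). C4bp, whose product is a cofactor in the breakdown of C4b, had a log2 fold change of -0.26 (SE 0.11, adjusted p = 0.755). Among 8 receptors, C5ar1, the receptor of the C5a fragment, had one of 0.31 (SE 0.24, adjusted p = 0.860), and Vsig4, a receptor of Kupffer cells, one of -0.28 (SE 0.44, adjusted p = 0.931). None of 5 relatives of the terminal genes passed either, the perforin-like gene Mpeg1 being the one with the lowest p (log2 fold change -0.36, SE 0.18, adjusted p = 0.805).

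**Figure D4:**
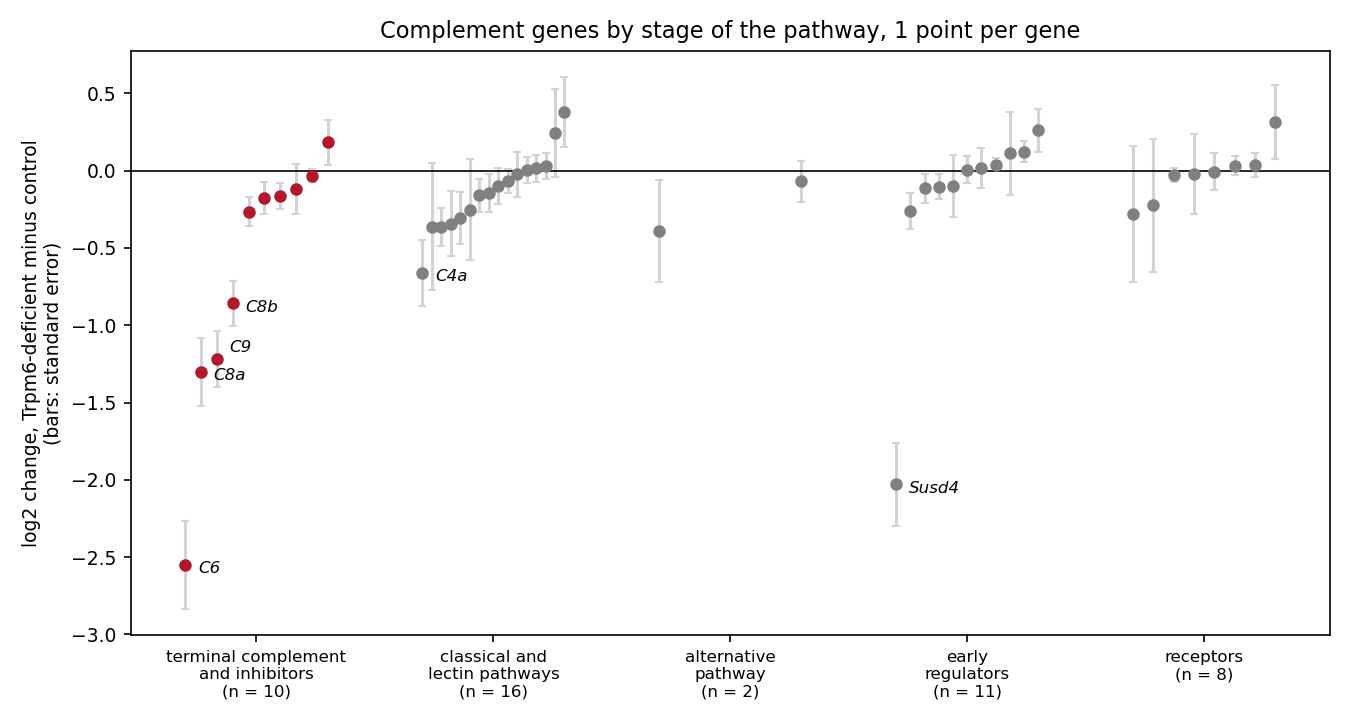
Log2 change, Trpm6-deficient minus control (vertical axis), of the 10 terminal complement genes (red) and of 37 genes of the other stages (grey), 1 point per gene with its SE and sorted within a stage. C6, C8a, C9 and C8b lie between -2.55 and -0.86, and outside the terminal pathway Susd4 at -2.03 stands apart.

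Livers were compared for the cells they held, since in whole tissue fewer cells of a type and less RNA per cell cannot be told apart. Of 10 hepatocyte markers 8 were measured, with a mean log2 level of 13.44 to 13.56 in Trpm6-deficient and 13.40 to 13.51 in control livers. Their median log2 fold change was 0.01. Of the 8, 0 passed, and 0.129% of all probe sets did. At an unadjusted p of 0.05 or less in limma 1 was higher (Asgr1) and 0 lower, against 3.85% and 3.03% of all probe sets. Without overlap 1 was higher (Ttr), as was so for 2.94% of all probe sets. The mean level of 8 Kupffer cell markers was 8.64 to 8.81 in Trpm6-deficient and 8.34 to 9.27 in control livers, and that of 7 sinusoidal endothelial markers 9.47 to 9.89 in Trpm6-deficient and 9.22 to 10.24 in control livers. Control 1 was lowest in both lists, and it was also the highest control for C6, C8a, C9, Hc and Clu and the lowest for C8g and Cd59a. The part of cell content in these values was not tested. Of 3 erythroid markers only Alas2 was measured, with a log2 fold change of -1.66 (SE 0.26, adjusted p = 0.192), and Trpm6-deficient 1 was again shifted least for it, by -1.03, with Trpm6-deficient 2 and 3 at -2.13 and -1.79.

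Genes known to be higher in male mouse liver were lower in the same livers. All 12 measured genes of a list of 13 were lower without overlap between the groups, and 4 of them passed, against 2.38% and 0.0534% of all probe sets in this direction. The mean shift of the list was -1.94, -3.01 and -3.62 in Trpm6-deficient livers 1, 2 and 3, and -0.16 to 0.10 in control livers. By this mean Trpm6-deficient 1 was shifted least here as well, but Trpm6-deficient 3 and not 2 was shifted most. The order differed by gene. Trpm6-deficient 2 was shifted least for Cyp7b1, Nudt7, Ugt2b38 and Selenbp2, and Trpm6-deficient 1 for the other measured genes of the list. Of the 9 measured of 13 genes higher in female liver, 5 were higher without overlap and 1 passed, against 2.94% and 0.0759% of all probe sets in this direction. Their mean shift was 2.08, 2.85 and 1.77 in the Trpm6-deficient livers, where Trpm6-deficient 3 was shifted least. The median log2 fold change of the 9 was 0.40, with values from 0.01 to 8.71 (Cyp2b9). The mean shift thus does not stand for each gene of this list. Both lists were drawn up with results of these livers known, and their part in the complement values was not tested. Trpm6 had log2 values of 5.50, 5.37 and 5.50 in Trpm6-deficient and 5.53, 5.51, 5.50 and 5.50 in control livers. All of them lay between the lower quartile (5.05 to 5.11) and the median (6.43 to 6.48) of the arrays. Whether its probe set was above background was not tested, and which part of the gene it reads was not examined. These values therefore do not show whether the transcript was lost or kept.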

How the data were processed

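Liver RNA of 3 Trpm6-deficient and 4 control littermates was measured on Affymetrix Mouse Gene 1.0 ST arrays. The authors used Affymetrix Expression Console 1.4.0 for background correction, normalization and summarization. The submitters' processing notes name RMA. The deposited table holds log2 values of 35556 probe sets. The deposited log2 values were used unchanged. Normalization between arrays sets changes relative to the bulk of the probe sets. The number of arrays limits the precision.

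Values were fitted with limma 3.58.1 in R 4.3.3 as in the study, and without a covariate, since the methods name none. All probe sets entered the Benjamini-Hochberg adjustment, with a threshold of 0.1. The script was tested on simulated data. The brightest probe set with 1 symbol stood for a gene. Genes named were the 10 members, per list the 2 other complement genes with the lowest p, and the 6 probe sets most like C6, besides neighbours and marker genes. The members and lists were chosen with earlier results of these data known. Alternatives were age as a covariate, a replicate block, quantile normalization, median centring, a filter on dim probe sets and another variance model. Further alternatives were an equal-variance t-test, the mean of probe sets (which cannot change the 10 members, with 1 probe set each), another threshold and leaving out each liver. The methods name a t-test without stating its form, and the equal-variance test is not taken to be that test.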

Additional observations from a re-analysis of the deposited data

Results flagged for a closer look

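C9 in control 1 had a log2 value of 13.12, while the other control livers lay at 12.78 to 12.83, so that this liver stood far from the rest of its group. The 10 genes gave 10 control groups to examine, of which this was the 1 found, and chance gives about 1 in 20. Without control 1 the log2 fold change of C9 was -1.14.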

How the results depend on the processing

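The count of probe sets called, 46 in the values reported, was 8 with age as a covariate and 1 with the replicate block. It was 70 over probe sets whose mean was at least 5 (log2) and 8 with an equal-variance t-test. At an adjusted p of 0.05 it was 14, and it was 7 to 69 when 1 liver was left out. That t-test passed 1863 probe sets at an unadjusted p of 0.05 or less, where limma passed 1076 lower and 1368 higher. The count that the study gives for its t-test at this threshold lies close to the total of limma. The equal-variance test is therefore not taken to be the test of the study. Of the 10 terminal complement genes, 1 (C6) was called. None was with age, the replicate block, the t-test or an adjusted p of 0.05, and 0 to 4 were when 1 liver was left out. Of the 37 other complement genes, none was called with the equal-variance t-test. After quantile normalization and with the filter at 5, 1 (Susd4) was called, and 0 to 1 were when 1 liver was left out. The median log2 fold change of the 10 genes was -0.40 within 12 weeks and -0.28 to -0.21 without 1 liver. The log2 fold changes of C6, C8a, C8b and C9 stayed below 0 in each of 16 alternatives, between -3.25 and -2.17 for C6. No called value changed sign. The replicate numbers are not known to pair the mice, and deviations of same-numbered livers correlated at 0.33, 0.26 and 0.09. The livers of replicate 1 differed in age, at 13 weeks (Trpm6-deficient) and 12 weeks (control), and those of replicates 2 and 3 did not. Trpm6-deficient 3 correlated best with control 4 (0.23). The block fit used replicates 1 to 3 and gave C6 a log2 fold change of -2.54 (adjusted p = 0.388). The cause of these changes in calls was not tested.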

Other observations

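Acute phase genes are induced by the liver together with some complement genes in inflammation. Of 16 measured genes of this list none passed limma's threshold, and at an unadjusted p of 0.05 or less 3 were higher and 0 lower, against 3.85% and 3.03% of all probe sets. Lcn2, an iron-binding lipocalin gene, had a log2 fold change of 1.93 (SE 0.43, adjusted p = 0.389). Orm2, an orosomucoid gene, had one of 1.54 (SE 0.63, adjusted p = 0.724) and Apcs, the serum amyloid P gene, one of 0.50 (SE 0.19, adjusted p = 0.685). The shifts of Orm2 were uneven, at 1.175, 0.285 and 3.165 in Trpm6-deficient livers 1, 2 and 3. Over the list the median was -0.01, with log2 fold changes between -0.97 and 1.93.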
